A study of Mus musculus with 5 samples.

Results

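Cytosolic ribosomal protein genes were followed in single nuclei of the mouse kidney after ischaemia-reperfusion injury (IRI, an injury made by stopping and restoring the blood flow). The genes were taken by symbol: every row whose symbol starts with Rpl or Rps and a digit, with Rplp0, Rplp1, Rplp2 and Rpsa, and without pseudogene rows and the Rps6k kinases. This gave 86 of 27998 gene rows. Of these, 46 encode core proteins of the large ribosomal subunit and 31 core proteins of the small subunit. The other 9 rows are paralogs and look-alikes (Rpl36al, Rps27l, Rpl6l, Rpl22l1, Rps19bp1, Rpl7l1, Rpl3l, Rpl10l and Rpl39l). Rps19bp1 encodes a binding partner of Rps19 and no ribosomal protein, and Rpl6l is annotated as a processed pseudogene. The label therefore did not hold for Rps19bp1 and Rpl6l, and 77 of the 86 rows are core members.

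Nuclei came from male mice of 10 to 12 weeks with 3 transgenes (Six2-TGC, Rosa26rtTA, pTRE-H2BeGFP) fed doxycycline food (625 mg/kg), so that nephron cells, which descend from Six2-expressing progenitors, carried a green fluorescent histone (GFP). There were 5 libraries, each the only one of its group: nuclei without injury, sorted either as GFP-negative or as GFP-positive, and GFP-positive nuclei from kidneys whose pedicles had both been clamped 64 h, 96 h or 28 d earlier. Both libraries without injury carried the same serum values (creatinine 0.122 mg/dL, urea nitrogen 26.1 mg/dL) and may share animals, and the sources differ on whether these animals had sham surgery. After clamping, creatinine (mg/dL) read 0.375 in the 64 h group, 0.312 in the 96 h group and 0.144 in the 28 d group. Urea nitrogen (mg/dL) read 37.0, 91.8 and 31.7 in the same order, so creatinine was highest at 64 h and urea nitrogen at 96 h. The number of animals per library was not given. With 1 library a group, no difference between groups could be tested: "higher" and "lower" describe these libraries, and every interval is a 95% interval for counting error only. All folds after injury share 1 reference, the GFP-positive library without injury, and so are not independent of each other.

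Between 3012 and 3508 nuclei per library were kept, with 1856284 to 7153971 UMIs (unique molecular identifiers, each 1 counted RNA molecule). The 96 h library was the shallowest, with a median of 507 UMIs per nucleus against 1793.5 in the GFP-positive library without injury, and 306 of its barcodes were left out. Pairs of libraries shared 9 to 20 barcodes. Nuclei were clustered without the ribosomal protein genes, and clusters were named by fixed markers: "PT-like" stands for proximal tubule and "TAL-like" for thick ascending limb. The GFP-positive library without injury also held 46 endothelium-like nuclei, a type outside the nephron lineage. Of these, 39 were in cluster 22, whose second best match was proximal tubule.

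Each ribosome carries 1 copy of nearly every ribosomal protein, and their genes lie scattered over the genome. Their messenger RNAs share a run of pyrimidines at the very start, the terminal oligopyrimidine (TOP) run, through which mTOR signalling and Larp1 adjust their translation together. In tubule cells that repair themselves after ischaemia, making new ribosomes is part of regrowth. A nucleus holds new transcripts and those waiting for export, so the values below are nuclear RNA levels and not protein or cytoplasmic RNA.

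The members lay on 19 chromosomes and were short: the median span of the annotated gene was 3328.5 bp, against 13883.5 bp over all gene rows matched, and 68 of the 86 spanned less than 5 kb. RefSeq starts (build GRCm38.p6) were listed for 65 members. In a window of 30 bases, 15 before and 15 from the start, 36 of these (55.4%) held a run of at least 6 pyrimidines, that is a C followed by C or T only, on the coding strand. The same was found for 25.5% of all 27025 genes with a listed start. The windows of 8 members are shown because these stand at the ends of the range of responses below or are the paralog with the largest fold. The longest run of each window is in capitals, and a window with no capitals held none.
Rpl38: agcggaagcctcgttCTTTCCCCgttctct
Rpl37: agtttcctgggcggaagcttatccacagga
Rpl31: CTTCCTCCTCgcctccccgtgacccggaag
Rps28: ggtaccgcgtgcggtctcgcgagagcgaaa
Rpl39: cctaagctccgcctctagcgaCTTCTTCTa
Rps6: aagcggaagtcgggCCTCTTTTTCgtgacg
Rpl26: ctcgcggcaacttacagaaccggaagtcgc
Rps27l: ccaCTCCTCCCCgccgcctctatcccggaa

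Rpl38 (chr11:114668565-114668594, plus strand) had an 8-base run that began at the listed start itself. The Rps6 window (chr4:86857353-86857382, minus strand) held a 10-base run that began 1 base before it. The other windows lie at chr15:5116598-5116627 (Rpl37, plus), chr1:39367836-39367865 (Rpl31, plus), chr17:33824548-33824577 (Rps28, minus), chrX:37085208-37085237 (Rpl39, minus), chr11:68901551-68901580 (Rpl26, plus) and chr9:66946071-66946100 (Rps27l, plus). Both genes that ended high at 28 d and genes that ended low held a run, and both kinds included windows without one. A match is a description of these letters and not a mapped start. The annotated gene starts of Rpl38, Rpl37, Rpl39, Rps6 and Rpl26 lie outside their windows. For Rpl37 and Rpl26, whose windows held no run, the window ends before the annotated gene begins. The runs of Rpl31 and Rps27l lie wholly before the listed start. A window therefore does not show whether the messenger RNA begins with a run. In proximal tubule nuclei the 34 tested members with a run had a median log2 fold of 1.01 at 64 h, 1.40 at 96 h and 0.22 at 28 d, and the 27 without had 1.13, 1.33 and -0.04. The members of both sets overlapped over most of their range at each time.

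Ribosomal protein RNA took a larger share of UMIs in the 64 h and 96 h libraries than without injury. At 28 d its share was back near the uninjured level. These are shares of the UMIs counted and not amounts per nucleus, and depth differed between the libraries. Over all nuclei the members took 0.490% of UMIs (interval 0.485% to 0.495%) in the GFP-positive library without injury and 0.504% (0.497% to 0.511%) in the GFP-negative one. The share was 1.02% (1.01% to 1.03%) at 64 h and 1.28% (1.26% to 1.29%) at 96 h. At 28 d it was 0.473% (0.466% to 0.480%). The libraries at 64 h and 96 h thus stood 2.08-fold (2.05 to 2.11) and 2.61-fold (2.56 to 2.65) above the reference, and the 28 d library 0.965-fold (0.947 to 0.982).

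PT-like nuclei, the cells that reabsorb most of the filtrate and suffer most in ischaemia, showed the same course. The share was 0.515% (0.509% to 0.522%) in 2265 GFP-positive nuclei without injury and 0.638% (0.622% to 0.655%) in 384 GFP-negative ones. After injury it was 1.11% (1.09% to 1.12%) in 1825 nuclei (64 h), 1.24% (1.21% to 1.26%) in 1095 nuclei (96 h) and 0.473% (0.464% to 0.482%) in 2077 nuclei at 28 d. As folds over the reference these were 2.14 (2.11 to 2.18), 2.40 (2.34 to 2.46) and 0.918 (0.898 to 0.939). Both early libraries lay above both libraries without injury, while the 28 d library lay below both. With plain totals the 2 libraries without injury stood 1.24-fold (1.2 to 1.28) apart, a larger gap than that between 28 d and the reference. This order did not hold with TMM scaling, as given below. The 2 libraries without injury differ in their sort and, as given below, in the clusters their PT-like nuclei fell into.

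**Figure D1:**
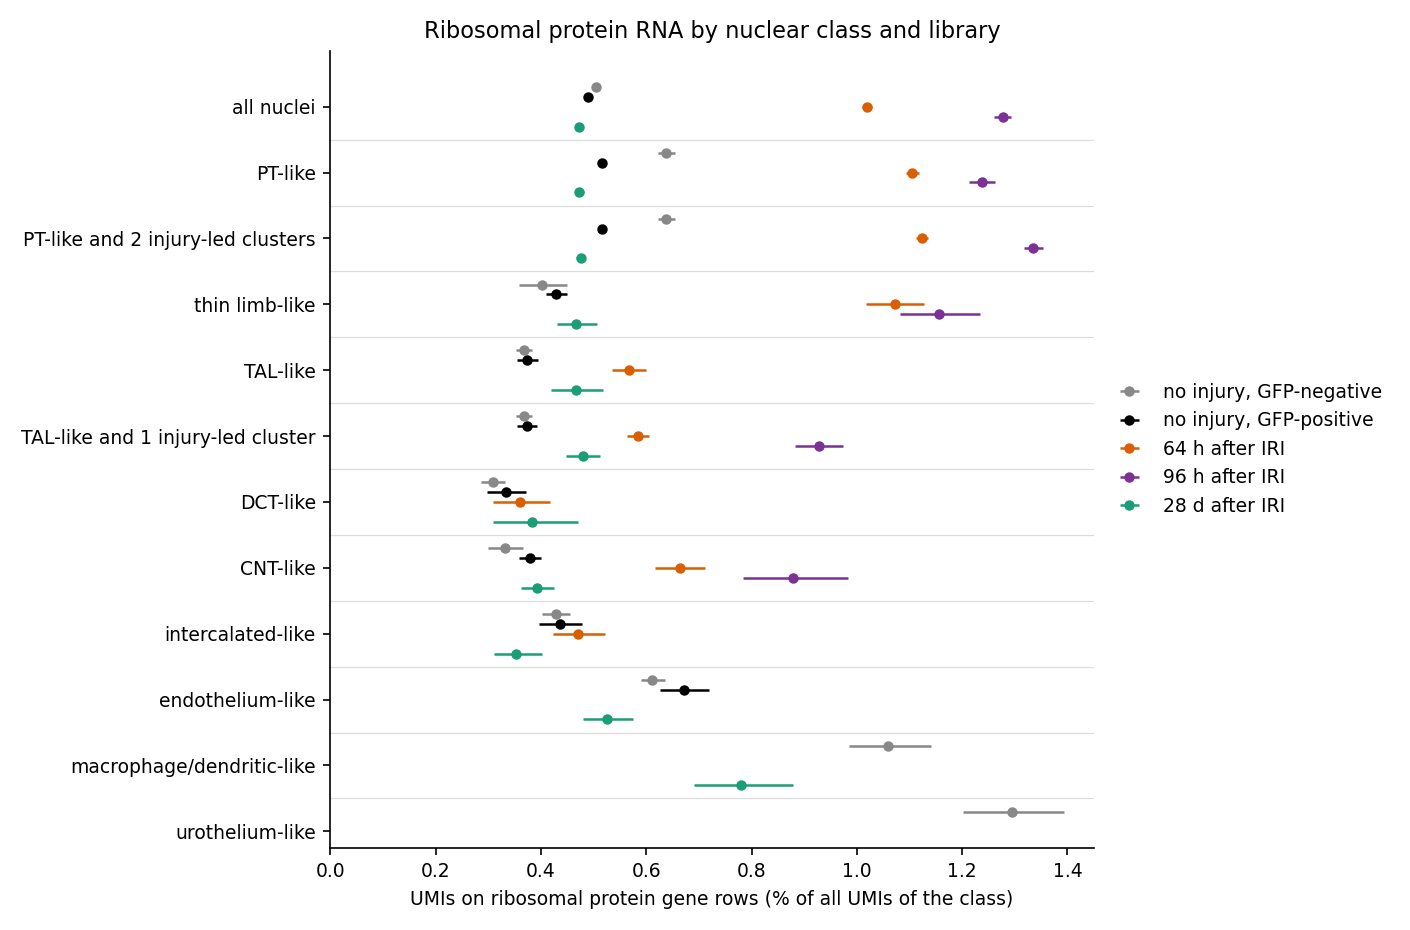
Share of UMIs on ribosomal protein gene rows (x axis, % of all UMIs of the class) for each class of nuclei (y axis), 1 point per library with its exact 95% counting interval, for classes with at least 30 nuclei in that library. In PT-like nuclei the 64 h and 96 h points lie at 1.11% and 1.24%, right of both points without injury, whereas the DCT-like points lie between 0.309% and 0.383%.

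Other values also differed between the libraries in PT-like nuclei. Long nuclear-retained RNAs, nearly all of it Malat1, made up 20.4% of the UMIs of the reference library, 11.5% of those of the 64 h library, 13.1% in the 96 h and 17.6% in the 28 d library. With them taken out of the total the folds became 1.93 (64 h) and 2.20 (96 h). Mitochondrially encoded RNA, a sign of cytoplasm carried along, took 0.0804%, 0.123%, 0.0423% and 0.0861%, so it was above the reference at 64 h and below it at 96 h. Their part in the result was otherwise not tested.

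Depth differed too, and within a library the shallower nuclei mostly had the higher shares. Among PT-like nuclei of 500 to under 1000 UMIs the share was 0.678% in 159 nuclei without injury, then 1.25% in 446 (64 h), 1.24% in 627 (96 h) and 0.479% in 932 (28 d). Among those of 1000 to under 2000 UMIs it was 0.572%, 1.15%, 1.14% and 0.470% in the same order. Among those of at least 2000 UMIs it was 0.477%, 1.01%, 0.902% (8 nuclei) and 0.461%. Under 500 UMIs the reference had no nuclei, and the share was 0.987% in 26 nuclei (64 h), 1.44% in 319 (96 h) and 0.566% in 120 (28 d). In each range that held reference nuclei both early libraries were thus above the reference and the 28 d library below it, while the order of the 64 h and 96 h libraries depended on the range. Depth was not equal within a range either: between 500 and 1000 UMIs the mean was 828 UMIs per nucleus without injury and 687 at 96 h. Thinned to 600 UMIs per nucleus, the shares were 0.541%, 1.14%, 1.2% and 0.467%.

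The PT-like nuclei of the libraries fell into different clusters. At 64 h most (958) were in cluster 4, led by Cyp2a5, Dpp4 and Gpc3. At 96 h most (748) were in cluster 12, led by Brca2, 1700034P13Rik and Unc5cl. In the GFP-positive library without injury most were in clusters 15 (964) and 9 (742). Of the 384 GFP-negative PT-like nuclei 208 were in cluster 11, against 219 of the 2265 GFP-positive ones without injury. None of the 10 leading genes of cluster 12 is a marker of proximal tubule, and its name rests on the mean level of all proximal tubule markers. With another Leiden resolution (0.5), 702 of its 748 nuclei at 96 h fell into an unnamed cluster, and 844 of the 1095 PT-like nuclei of that library did. Without cluster 12, an alternative chosen after seeing the data, the 96 h fold in PT-like nuclei was 2.25 (2.16 to 2.34), beside 2.13 for 64 h and 0.904 for 28 d. Within single clusters the fold at 64 h ran from 1.69 (1.6 to 1.79) in cluster 9 to 2.51 (2.26 to 2.79) in cluster 12. At 28 d it ran from 0.743 (0.705 to 0.784) in cluster 9 to 1.12 (1.06 to 1.19) in cluster 11, led by Cyp7b1. Adding 2 unnamed clusters led by injury genes (1 led by Fgg, which matched proximal tubule best, and 1 led by Vcam1, which matched parietal epithelium best) raised the 96 h fold to 2.59 (2.55 to 2.64), with 2584 nuclei, and gave 2.18 at 64 h and 0.923 at 28 d.

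Of the 86 members, 83 had at least 20 UMIs in all and 3 (Rpl13, Rpl10l and Rpl39l) had none in any library. In PT-like nuclei 82 could be compared, having at least 20 UMIs in both sums together. At 64 h, 73 of the 82 were at least 1.5-fold higher and none was 1.5-fold lower, where 23.2% of all 11863 genes tested were that much higher and 12.1% that much lower. The median log2 fold was 0.99 for the members and 0.17 for all genes tested. At 96 h, 74 of 82 were higher and none lower (35.1% and 15.1% of all genes), with medians of 1.32 and 0.26. At 28 d only 10 were higher and 18 lower (12.5% and 8.88% of all genes), with medians of -0.02 and 0.06.

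Counting error alone left most early folds clear of 1: the whole interval lay above 1 for 72 of 82 members at 64 h and 78 at 96 h, where it did for 33.1% and 32.8% of all genes tested. At 28 d it lay above 1 for 15 members (20.3% of all genes). It lay wholly below 1 for 1 member (Rpl21) at 64 h, none at 96 h and 24 at 28 d, and for 14.7%, 12.5% and 11.9% of all genes. Intervals narrow as UMIs increase, and members and all genes were not matched for level. There were 67 members (81.7%) at least 1.5-fold higher at both early times, against 15% of the 11180 genes tested at both. Both subunits moved by like amounts: the large subunit had 41 of 45 members higher at 64 h and 42 at 96 h (medians 1.05 and 1.44), and the small subunit 28 of 31 and 29 (medians 1.00 and 1.27). In the GFP-negative library without injury 12 of 82 were higher and none lower than in the GFP-positive one (24.6% and 10.1% of all genes), with a median of 0.32 against 0.15 over all genes. With TMM scaling, which allows for differences in composition, every log2 fold dropped by 0.22 at 64 h and dropped by 0.44 at 96 h, which left 62 and 53 members higher and none lower. Of all genes, 15.5% and 20.1% were then higher, and 18% and 30.8% lower. The summed folds under TMM were 1.85 (1.82 to 1.88) at 64 h and 1.76 (1.72 to 1.81) at 96 h, so that the 96 h library was no longer the higher one. At 28 d the summed fold under TMM was 0.840 (0.821 to 0.859). In the GFP-negative library every log2 fold dropped by 0.32 under TMM, from a member median of 0.32 with plain totals. Its gap to the reference was then smaller than that of the 28 d library.

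**Figure D2:**
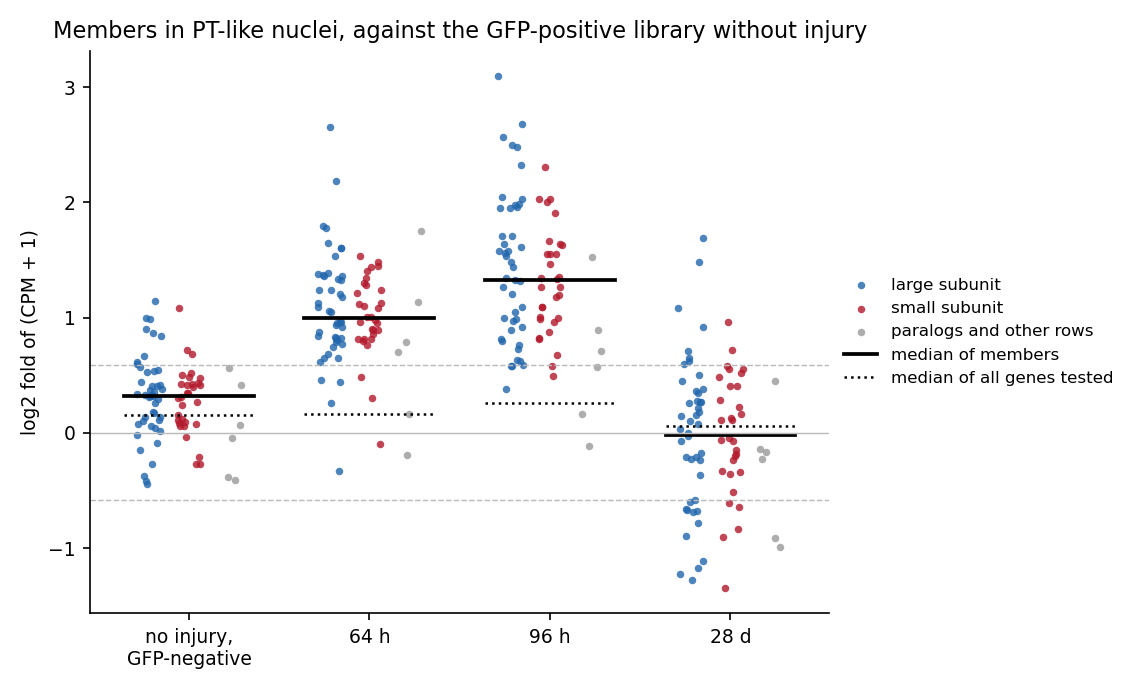
Log2 fold of (CPM + 1) in PT-like nuclei for each of the 82 members tested (1 point each, coloured by subunit), against the GFP-positive library without injury. Solid bars are medians of the members, dotted bars medians of all genes tested, and dashed lines mark 1.5-fold. The member median is 0.99 at 64 h and 1.32 at 96 h, and at 28 d it lies at -0.02 with members on both sides.

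Levels are given as CPM, UMIs per 1000000 UMIs of the same nuclei. The member with the most UMIs was Rpl41, the smallest protein of the ribosome, with 11184 over the 5 libraries. In PT-like nuclei it stood at 571 CPM in the GFP-negative and 359 in the GFP-positive library without injury, then 848 (64 h), 973 (96 h) and 434 (28 d). Every injured library was above the GFP-positive reference, but the 28 d library lay below the GFP-negative one. The folds were 2.36 (2.22 to 2.52), 2.71 (2.48 to 2.96) and 1.21 (1.12 to 1.31). Per kilobase of annotated exon, over all GFP-positive nuclei without injury, Rplp1 (324 CPM per kb) and Rpl41 (300.03) led, and the median of the members with UMIs was much lower at 21.3.

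The other 8 of the 10 members with the most UMIs, beside Rpl41 and Rplp1, all had higher levels at both early times. They were Rps19, mutated in Diamond-Blackfan anaemia, Rpl10a, a large-subunit protein near the site where used transfer RNA leaves, Rps15, Rpl32, Rpl14, Rpl27a, Rps27a and Rpl17. Their folds ran from 1.61 (Rpl32) to 2.09 (Rpl27a) at 64 h, and from 1.5 (Rpl32) to 2.96 (Rpl10a) at 96 h. At 28 d only Rps15 was above the reference, at 1.08-fold (0.941 to 1.24), an interval that includes 1. The lowest was Rpl14 at 0.534-fold (0.449 to 0.631). Abundant members therefore tended to end below the reference at 28 d: across the 82 members Spearman's rho between the level without injury and the 28 d fold was -0.53. This is a description only, since both use the reference library.

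The P-stalk, the arm of the large subunit that recruits elongation factors, consists of Rplp0 with Rplp1 and Rplp2 and sits on Rpl12. Rplp1 stood at 191 CPM in the GFP-negative and 173 in the GFP-positive library without injury, then at 606 (64 h), 520 (96 h) and 165 (28 d). Both early libraries were well above the other 3, and the 28 d level did not differ from the reference beyond counting error (0.953-fold, 0.842 to 1.08). Its fold at 64 h, 3.49 (3.21 to 3.80), was among the 4 highest. Rplp0 stood at 141, 106, 274, 227 and 65.4 CPM in the same order, that is 2.58-fold (2.31 to 2.89) at 64 h and 0.616-fold (0.511 to 0.740) at 28 d. Rplp2, a low-count member with 64 UMIs in the 64 h sum, was 1.38-fold higher at 64 h (0.978 to 1.95, which includes 1) and 4.05-fold (2.78 to 5.85) at 96 h. Rpl12 was 1.83-fold higher at 64 h and 4.21-fold at 96 h. The 4 stalk genes thus had different courses, with Rplp0 and Rplp1 highest at 64 h, and Rplp2 and Rpl12 highest at 96 h.

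Rpl5 and Rpl11 form a particle with the 5S ribosomal RNA and, when free of the ribosome, bind Mdm2 and so stabilise p53. Rpl5 stood at 65.2 CPM in the GFP-negative and 52.3 in the GFP-positive library without injury, then 134 (64 h), 154 (96 h) and 63.3 (28 d). Rpl11 stood at 43.1, 40.7, 108, 129 and 41.8 CPM. The pair moved alike, with folds of 2.56 and 2.65 at 64 h and 2.93 and 3.16 at 96 h, and with intervals that included 1 at 28 d (1.21, 0.980 to 1.49, and 1.03, 0.796 to 1.31).

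Rpsa, Rps27a and Rps6 have roles beyond the ribosome or known regulation. Rpsa, which also serves as a precursor of a laminin receptor, was 2.92-fold higher (2.52 to 3.38) at 64 h, 3.14-fold (2.56 to 3.84) at 96 h and 1.33-fold (1.10 to 1.60) at 28 d. Rps27a, made as a fusion with ubiquitin, was 1.76-fold higher at 64 h, 1.96-fold at 96 h and 0.796-fold (0.680 to 0.929) at 28 d. Rps6, the target of the S6 kinases below mTOR (gene at chr4, minus strand), stood at 53.6 CPM in the GFP-negative and 64.8 in the GFP-positive library without injury, then 121 (64 h), 97.2 (96 h) and 25.0 (28 d). Its level was 1.86-fold higher (1.60 to 2.18) at 64 h and had the lowest fold of all members of at least 100 UMIs at 28 d, 0.385 (0.286 to 0.511).

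Among members with at least 100 UMIs in both sums together, the highest folds were Rpl39, Rpl38, Rplp1 and Rpl7 at 64 h and Rpl38, Rpl37, Rpl37a and Rpl39 at 96 h. Rpl39, which lines the exit tunnel of the ribosome, stood at 62.9 CPM in the GFP-negative and 27.8 in the GFP-positive library without injury, then 180.1 (64 h), 160.2 (96 h) and 53.4 (28 d). Its 6.47-fold (5.34 to 7.88) at 64 h was the largest, but the libraries without injury differed by 2.26-fold, so the 64 h level was less far above the GFP-negative one. Rpl38, a member known for its part in the translation of Hox messages, stood at 14.0, 15.6, 74.3, 140.5 and 52.5 CPM. Here both libraries without injury were alike and all 3 injured libraries were above them, by 4.77-fold (3.65 to 6.29), 9.02-fold (6.65 to 12.3) and 3.37-fold (2.51 to 4.56). Rpl7 was 3.50-fold higher (2.93 to 4.20) at 64 h, 2.1-fold at 96 h and 0.845-fold (0.637 to 1.11) at 28 d.

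Rpl37 and Rpl37a, zinc-binding proteins of the large subunit, stood higher at 96 h than at 64 h. Rpl37 stood at 22.1 CPM in the GFP-negative and 15 in the GFP-positive library without injury, then 45.2 (64 h), 101 (96 h) and 43.5 (28 d). Its folds were 3.02 (2.25 to 4.09), 6.76 (4.84 to 9.45) and 2.91 (2.13 to 3.99). Rpl37a was 2.23-fold higher at 64 h and 5.79-fold (4.54 to 7.39) at 96 h. Of the 82 members, 57 (69.5%) had a larger fold at 96 h than at 64 h, as did 56.4% of all genes tested at both times.

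The lowest folds were those of Rpl21, Rpl7l1, Rps19bp1 and Rpl9 at 64 h and of Rpl7l1, Rpl22l1, Rps25 and Rpl6l at 96 h. Rpl21 stood at 122 CPM in the GFP-negative and 79.6 in the GFP-positive library without injury, then 63.1 (64 h), 133 (96 h) and 33.6 (28 d). Rpl21 was the sole member whose interval lay below 1 at 64 h (0.793-fold, 0.660 to 0.949), and 96 h was 1.67-fold above the reference. Rpl9 was 1.2-fold at 64 h (0.916 to 1.58) and 2.00-fold (1.38 to 2.84) at 96 h. Rps25, a small-subunit protein needed for initiation at some viral and cellular internal entry sites, was 1.40-fold higher at 64 h, 1.41-fold at 96 h and 0.556-fold (0.439 to 0.698) at 28 d.

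Members with many processed pseudogenes are uncertain, since reads that match several copies can be lost or split. The 16 pseudogene rows left out by the rule held 14187 UMIs beside 141850 on the member rows. Rpl13 had 0 UMIs in all 5 libraries while Rpl13-ps3 had 2535. Rpl9 had 661 UMIs while Rpl9-ps6 had 3039, and Rpl27 had 186 while Rpl27-ps3 had 1804. Rps18, Rps26, Rps12, Rpl23a and Rpl7a also had fewer UMIs than a pseudogene row of the same name. Whether these UMIs come from the parent genes was not tested.

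**Figure D3:**
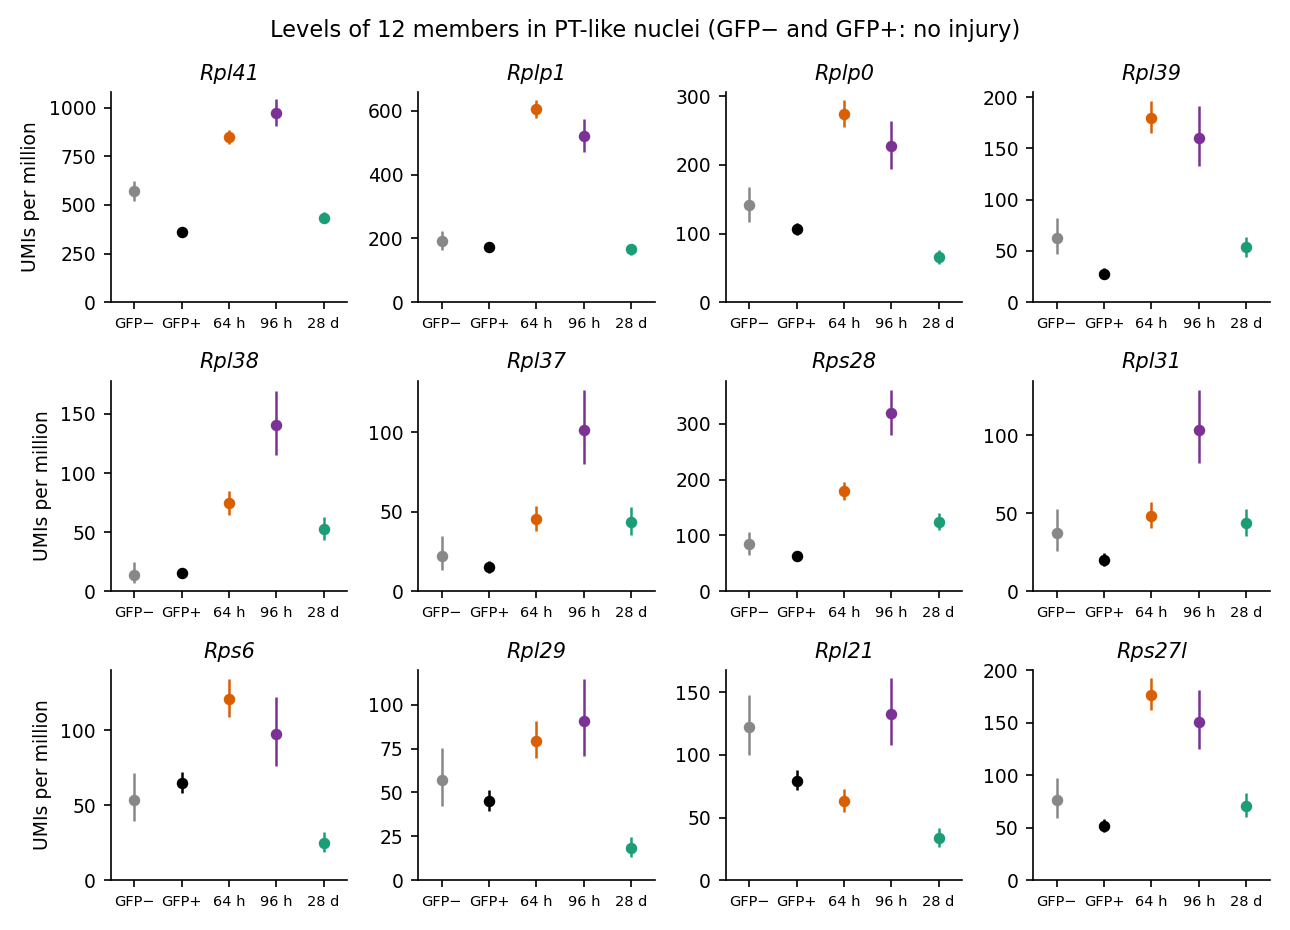
Levels (y axis, UMIs per 1000000 UMIs of PT-like nuclei, from 0) of 12 members in the 5 libraries (x axis), with exact 95% Poisson intervals for counting error. Rpl38 and Rpl37 stay above both libraries without injury at 28 d, at 52.5 and 43.5 CPM, whereas Rps6, Rpl29 and Rpl21 lie below both, at 25.0, 18.1 and 33.6 CPM.

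At 28 d the members parted. The 10 that were at least 1.5-fold higher were Rpl38, Rpl37, Rpl31, Rps28, Rpl39, Rps21, Rplp2, Rpl27, Rpl28 and Rpl37a, from 3.37-fold for Rpl38 to 1.55-fold for Rpl37a, and the interval of Rpl27 included 1 (1.62-fold, 0.825 to 3.14). Rpl31 stood at 37.3 CPM in the GFP-negative and 19.9 in the GFP-positive library without injury, then 48.3 (64 h), 104 (96 h) and 43.5 (28 d). Its 28 d fold over the reference was 2.18 (1.63 to 2.91), but the GFP-negative library lay nearly as high. Rps28 stood at 83.9, 63.6, 179, 319 and 124 CPM, with a 28 d fold of 1.96 (1.66 to 2.31) and all 3 injured libraries above both without injury.

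The 4 lowest at 28 d were Rps6, Rpl29, Rpl21 and Rpl26, all of which had been higher at 96 h. Rpl29, which also binds heparin at the cell surface, stood at 57.1 CPM in the GFP-negative and 45.1 in the GFP-positive library without injury, then 79.5 (64 h), 90.6 (96 h) and 18.1 (28 d). Rpl26, which also binds the p53 message, stood at 150.2, 122, 239, 207 and 53.8 CPM. The 28 d level was below both libraries without injury for each of the 4, with folds of 0.385, 0.401 (0.281 to 0.560), 0.422 (0.326 to 0.540) and 0.441 (0.360 to 0.535).

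The coding length of the members, which the rule did not use, went with this split. It was looked at after the folds had been seen. The 26 core members with the shortest coding sequence (138 to 405 bp) had a median log2 fold of 0.39 at 28 d, with 8 at least 1.5-fold higher and 2 lower. The 24 of middle length (408 to 576 bp) had a median of -0.00, with 2 higher and 7 lower, and the 26 longest (582 to 1257 bp) had -0.21, with none higher and 7 lower. Summed over each length group, the 28 d fold was 1.16 (1.12 to 1.21), 0.800 (0.765 to 0.836) and 0.823 (0.792 to 0.856).

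The shortest group was also highest at 96 h, at 2.97-fold (2.86 to 3.10) against 2.14 and 2.24. At 64 h the 3 groups stood at 2.39 (2.32 to 2.46), 1.93 and 2.14, and the rank correlation of fold with coding length over the 76 core members was near 0 (Spearman's rho -0.02), where it was -0.38 at 96 h and -0.47 at 28 d. The GFP-negative library without injury had the shortest group highest as well, at 1.38-fold (1.31 to 1.45) against 1.18 and 1.18. These correlations are descriptions: all points share 2 libraries and their depths. From the shortest to the longest, the groups held 7305, 7226 and 8989 UMIs in the reference library. The shortest group includes Rpl41 and Rplp1, the members with the most UMIs over the 5 libraries, and the groups were not matched for level per gene. Over the 82 members Spearman's rho between fold and level without injury was 0.03 at 64 h, -0.46 at 96 h and -0.53 at 28 d. The part of level in the length pattern was not tested.

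**Figure D4:**
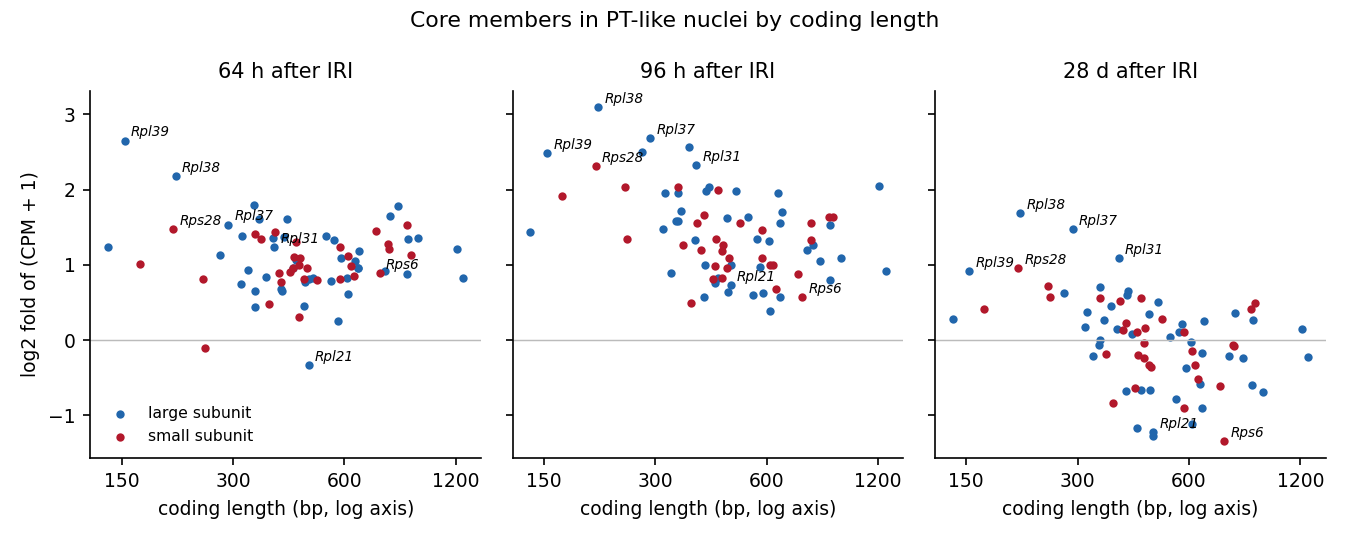
Log2 fold of (CPM + 1) in PT-like nuclei (y axis) against coding length in bp (x axis, log scale) for the 76 core members tested, 1 panel per time after injury and 1 point per gene. At 28 d the shortest group (138 to 405 bp) has a median of 0.39 and the longest (582 to 1257 bp) of -0.21, while at 64 h the points show no slope.

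Of the 9 paralog and look-alike rows, 6 had enough UMIs in PT-like nuclei. At 64 h Rps27l, Rpl22l1, Rpl6l and Rpl36al were at least 1.5-fold higher, and at 96 h Rps27l, Rps19bp1 and Rpl36al were. Rps27l, a paralog of Rps27 known as a p53 target, stood at 76.9 CPM in the GFP-negative and 51.7 in the GFP-positive library without injury, then 177 (64 h), 151 (96 h) and 71.0 (28 d). Its 64 h fold was 3.42 (2.93 to 4.00), where Rps27 itself, with 12 UMIs in the 64 h sum, was at 0.920 (0.415 to 1.94). Rpl22l1, the paralog of Rpl22, was 2.23-fold higher (1.85 to 2.69) at 64 h, 1.13-fold (0.767 to 1.61) at 96 h and 0.492-fold (0.352 to 0.677) at 28 d. Rpl22 was 2.60-fold, 2.54-fold and 1.11-fold, so the pair stood alike at 64 h and apart at 96 h and 28 d.

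Rpl36al was 1.63-fold higher (1.42 to 1.88) at 64 h and 1.65-fold at 96 h, where its paralog Rpl36a, a low-count gene, was 2.83-fold and 4.28-fold. Rpl7l1, a paralog of Rpl7, stood at 14.0, 18.5, 16.1, 17.1 and 16.4 CPM from the GFP-negative library on, and its interval included 1 at each time. Rps19bp1, which is no ribosomal protein, had an interval that included 1 at 64 h (1.13-fold, 0.778 to 1.63) and was 1.91-fold higher at 96 h. Rpl6l was 1.74-fold higher at 64 h, just under 1.5-fold at 96 h and 0.522-fold at 28 d. Rpl3l, a paralog of Rpl3 known from muscle, had 33 UMIs over all libraries and was not compared.

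Other genes of the translation machinery were taken from lists. Beside the list counts below stand the shares of all genes tested in PT-like nuclei. At 64 h 23.2% were at least 1.5-fold higher and 12.1% lower, and at 96 h 35.1% and 15.1%. Fau, a ribosomal protein made as a fusion with a ubiquitin-like protein, was 1.74-fold (1.23 to 2.45) above the reference at 64 h and 3.85-fold (2.56 to 5.73) at 96 h. Gnb2l1, the ribosomal scaffold also called Rack1, was 2.73-fold (2.24 to 3.35) and 4.51-fold (3.52 to 5.77) above it. Gnb2l1 stood at 33.4 CPM without injury, then 91.4 (64 h), 151 (96 h) and 65.4 (28 d), and was 1.96-fold higher (1.56 to 2.46) at 28 d. Fau at 28 d had an interval that included 1 (1.23-fold, 0.816 to 1.84).

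Elongation and termination factors had 9 of 13 genes higher and 1 lower at 64 h, and 8 and none at 96 h, with medians of 0.96 and 0.87. Eef1a1, which brings transfer RNA to the ribosome, was 3.89-fold higher (3.55 to 4.25) at 64 h and 2.39-fold at 96 h. Tpt1, a message with a TOP run, was 3.06-fold higher at 64 h and 1.32-fold at 96 h. Eef2, the translocation factor, was 1.99-fold and 3.11-fold higher. Eef1a1 and Tpt1 were thus highest at 64 h and Eef2 at 96 h.

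Initiation factors had 15 of 29 higher and none lower at 64 h, and 17 and none at 96 h (medians 0.62 and 0.76). Pabpc1, the poly(A)-binding protein, was 2.45-fold higher (2.16 to 2.79) at 64 h and 5.33-fold (4.6 to 6.17) at 96 h, and Eif4g1, the scaffold of the cap-binding complex, 1.64-fold and 2.70-fold. Eif4a2, a helicase, was at 0.880-fold (0.776 to 0.996) at 64 h. Ribosome biogenesis genes had 12 of 42 higher and 1 lower at 64 h, and 22 and 1 at 96 h (medians 0.43 and 0.71), so at 64 h their share of higher genes was nearer to that of all genes. Among the 3 with the most UMIs, Taf1d, a subunit of the polymerase I selectivity factor, was 2.86-fold higher at 64 h, while Xpo1, the export receptor, and Utp20 had intervals that included 1 at all 3 times.

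Most listed hosts of small nucleolar RNAs, which guide the modification of ribosomal RNA, had no row in the data, and 6 had one. Of these 6 genes, 2 were higher at 64 h and 5 at 96 h. Snhg18 stood at 1.95-fold and 3.62-fold, Snhg12 at 1.5-fold and 2.28-fold, and Snhg20 at 0.713-fold and 1.23-fold. Regulators had 2 of 18 higher at 64 h and 6 higher and 2 lower at 96 h, with medians of 0.31 and 0.33. Of all genes tested, 23.2% and 35.1% were higher, so the regulators did not exceed that share. Mtor, the kinase that controls TOP messages, was at 1.04-fold (0.938 to 1.16) and 0.957-fold (0.797 to 1.14). Rptor, its partner in mTORC1, was at 1.30-fold and 1.17-fold, and Larp4b, an RNA-binding protein of the La family, at 0.911-fold and 0.560-fold.

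Other large complexes differed from each other. The mitochondrial ribosome had 21 of 74 genes higher and 1 lower at 64 h, and 26 and 3 at 96 h (medians 0.39 and 0.35). This was near the share of all genes that were higher, 23.2% at 64 h and 35.1% at 96 h. The proteasome had 14 of 35 and 18 of 34 higher (0.48 and 0.67), with 1 lower at 96 h. Nuclear-encoded respiratory chain subunits had 47 of 79 and 52 of 78 higher (0.76 and 0.75), and 3 and 5 lower. Among those higher was Uqcr10 at 2.38-fold and 2.63-fold. Mrps21 of the mitochondrial ribosome was 1.56-fold and 1.38-fold higher, and Psmd1 of the proteasome 1.14-fold and 1.79-fold. The ribosomal protein genes had a larger median at both early times than each list of translation factors, biogenesis genes, small nucleolar RNA hosts, regulators and other complexes given here. Gene span did not set the members apart from each other, but other genes spanning under 5 kb were also more often high than all genes: 31.3% of 1022 at 64 h and 52.6% of 921 at 96 h were at least 1.5-fold higher, where 87.7% and 89.2% of the 65 short members were.

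**Figure D5:**
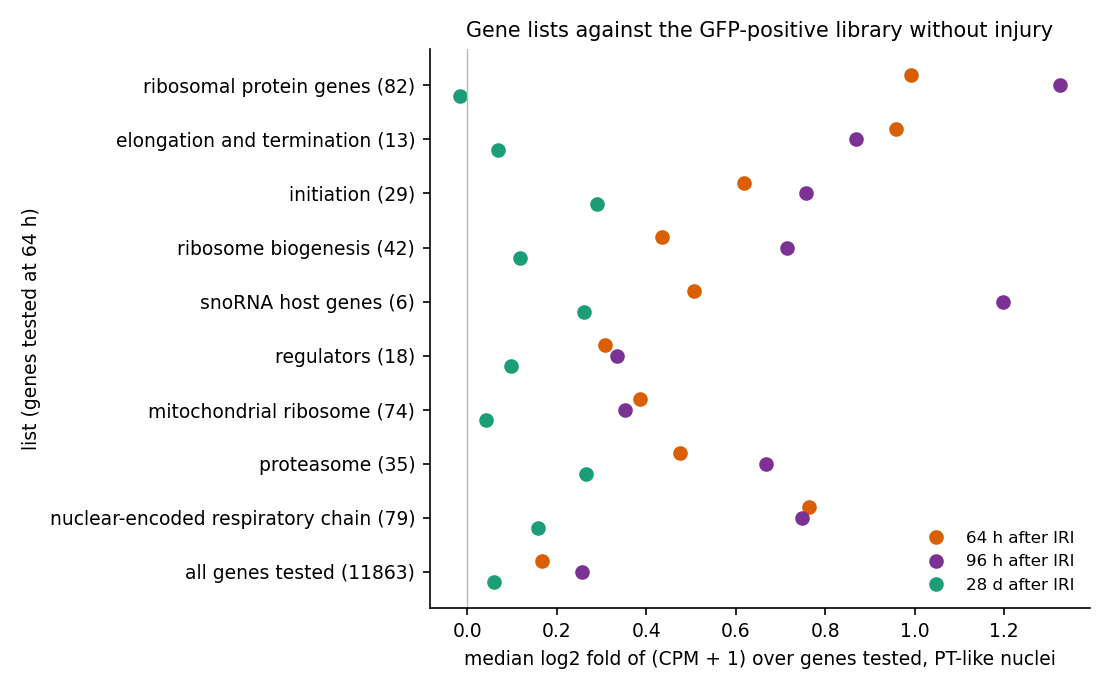
Median log2 fold of (CPM + 1) in PT-like nuclei for each gene list (y axis, with the number of genes tested at 64 h), 1 point per time after injury, against the GFP-positive library without injury. The ribosomal protein genes stand at 0.99 and 1.32 at the early times, where all genes tested stand at 0.17 and 0.26.

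Other segments of the nephron differed in how far their ribosomal protein RNA departed from the reference, and no difference between classes was tested. Thin limb-like nuclei stood at 0.429% without injury, 1.07% at 64 h (83 nuclei) and 1.16% at 96 h (131 nuclei), that is 2.5-fold (2.33 to 2.68) and 2.70-fold (2.49 to 2.92), and at 1.09-fold (0.990 to 1.2) at 28 d. Connecting tubule (CNT)-like nuclei had folds of 1.75 (1.6 to 1.92) at 64 h and 2.32 (2.04 to 2.63) at 96 h, and 1.04-fold (0.940 to 1.14) at 28 d. In the thin limb-like class 75 of 286 nuclei without injury, and none after injury, were in cluster 21, and its nuclear-retained RNA was 27.6% of UMIs without injury and 12.2% at 64 h. In both classes the early libraries lay above both libraries without injury.

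In TAL-like nuclei, the segment that reabsorbs salt through Slc12a1, the share was 0.368% in the GFP-negative and 0.374% in the GFP-positive library without injury, 0.567% at 64 h (169 nuclei) and 0.467% at 28 d (90 nuclei). This was 1.51-fold (1.40 to 1.64) and 1.25-fold (1.11 to 1.40) above the reference, and the 2 libraries without injury did not differ beyond counting error (0.982-fold, 0.918 to 1.05). At 64 h, 24 of 48 members tested were at least 1.5-fold higher and 1 (Rpl21) lower, where 18.6% and 14.2% of all 4930 genes were, with medians of 0.60 and 0.06. At 28 d, 10 of 36 were higher and 5 lower (18.9% and 19.1% of all genes), and 5 and 8 with TMM scaling (9.16% and 30.2% of all genes), which also turned the median from 0.24 to -0.04. The summed fold at 28 d was 1.02 (0.909 to 1.15) under TMM, an interval that includes 1.

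Only 9 TAL-like nuclei were found at 96 h, too few for folds. An unnamed cluster led by Lcn2 and Clu, most similar to TAL, held 364 nuclei at that time. With it added, an alternative chosen after seeing the data, the share at 96 h was 0.927% (0.882% to 0.974%) in 373 nuclei, 2.48-fold (2.31 to 2.66) above the reference, and 54 of 60 members tested were higher and none lower (28.2% and 24.1% of all genes).

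Distal convoluted tubule (DCT)-like and intercalated-like nuclei showed no difference at 64 h beyond counting error: 1.08-fold (0.896 to 1.30; 48 nuclei) and 1.08-fold (0.936 to 1.24; 62 nuclei). Intervals this wide leave room for a difference of up to 1.30-fold. At 28 d intercalated-like nuclei stood at 0.811-fold (0.690 to 0.952) and endothelium-like nuclei at 0.782-fold (0.697 to 0.877), of which 52 of 64 were in cluster 22. Within the 64 h library the classes therefore ran from 0.360% (DCT-like) to 1.11% (PT-like), with median depths of 980.5 and 1419 UMIs. Thinned to 600 UMIs the same classes stood at 0.330% and 1.14%. A list of abundant proximal tubule genes, whose RNA can leak into other nuclei as free RNA, took 0.274% of UMIs in TAL-like nuclei without injury, 0.135% at 64 h and 0.342% at 28 d. The same genes took 1.36%, 1.01% and 1.54% in PT-like nuclei of those libraries, and the part of free RNA in the TAL-like values was not tested.

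Without injury the highest shares were outside the nephron. In the GFP-negative library urothelium-like nuclei stood at 1.30% (1.2% to 1.39%; 36 nuclei) and macrophage and dendritic-like nuclei at 1.06% (0.984% to 1.14%; 119 nuclei), with median depths of 1464.5 and 466 UMIs. Collecting duct principal-like nuclei stood at 0.429% (0.413% to 0.446%) and DCT-like nuclei, the lowest of the classes with at least 30 nuclei, at 0.309% (0.287% to 0.332%).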

How the data were processed

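The deposited files hold raw UMI counts per gene and nucleus, made by the authors from 10x Genomics libraries of sorted nuclei aligned to a pre-mRNA reference of mm10. The tools named are bcl2fastq 2.17, STAR 2.5.1b and Cell Ranger 2.1, per the submitters' processing notes. How barcodes were called is not given in the sources used here, and the authors' cell types were not used here. Kept were barcodes with 200 genes or more whose mitochondrial share was 10% or less. No doublet caller was run, and deep clusters of mixed markers stayed unnamed.

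Counts were normalised to 10000 per nucleus, and 2000 variable genes, chosen without members, gave 30 principal components, 15 neighbours and Leiden clusters (scanpy 1.11.5, resolution 1.0, seed 0). Clusters took the best of 18 marker classes. Limits of this naming, such as leaving clusters with at least 3 injury genes among the 10 leading genes unnamed, were set after seeing the data.

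Counts were summed per class and library. Folds are log2 of CPM plus 1 CPM, for genes with at least 20 UMIs in both sums, and ratios carry exact conditional Poisson intervals, shares Clopper-Pearson intervals (95%). With 1 library per group no p-value was computed. Folds and intervals were tried on simulated Poisson counts, the model that the intervals assume. Variation between nuclei, animals or libraries was not simulated, so this checks the calculation only. Positions come from GENCODE mouse release vM21, the same build, in which all 86 members were matched by identifier. Alternatives included TMM factors (edgeR 4.0.16, R 4.3.3), other filters, resolutions and scalings.

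The members and gene lists were chosen with earlier results of these data known. Named are the 10 members with the most UMIs, the 4 highest and 4 lowest folds at each time among members of at least 100 UMIs, paralog rows, the P-stalk, the 5S particle, Rps6, Rpsa, Rps27a, members past 1.5-fold against the member median, and the 3 genes with the most UMIs of other lists, or fewer. Rpl22, Rps27, Rpl36a and the coding length were added after the values were seen. An item on these lists is not reported here.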

Additional observations from a re-analysis of the deposited data

Results flagged for a closer look

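At 28 d the summed share of ribosomal protein RNA lay on opposite sides of the GFP-positive library without injury in different classes. It was 0.918-fold in PT-like, 0.811-fold in intercalated-like and 0.782-fold in endothelium-like nuclei, and 1.25-fold in TAL-like nuclei, each with a counting interval that leaves out 1. With TMM scaling the TAL-like value was 1.02-fold (0.909 to 1.15), which no longer leaves out 1. Most of the endothelium-like nuclei (39 of 46 without injury, 52 of 64 at 28 d) were in cluster 22, whose second best match was proximal tubule, and in that cluster the fold was 0.786 (0.694 to 0.889). With 1 library per group this difference between classes was not tested.

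In PT-like nuclei, 22 members had an interval wholly above 1 at 96 h and wholly below 1 at 28 d, that is 26.8% of the 82 tested, against 1.44% of all 11110 genes tested at both times. For 15 members (18.3%) it was above 1 at both times, against 13.1% of all genes. Whether an interval leaves out 1 depends on the UMIs held. The 22 members held from 120 (Rpl10) to 1162 (Rps19) in the reference sum, while a gene was tested from 20 UMIs in both sums together. Members and all genes were not matched for level. The difference between the times was not tested either, and both use the same reference library.

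Pseudogene rows, which the rule leaves out, were also higher in PT-like nuclei: 1.89-fold (1.8 to 1.99) at 64 h and 2.02-fold (1.87 to 2.18) at 96 h, and 0.772-fold (0.718 to 0.830) at 28 d. Each interval lies below that of the member rows at the same time.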

How the results depend on the processing

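No paired analysis was possible because each group had 1 library. Among 21 alternatives, 4 were chosen after seeing the data (the total without nuclear-retained RNA, cluster 15 alone, PT-like nuclei without cluster 12, and the Lcn2-led cluster added to TAL-like nuclei). Of 376 recomputed values, 322 stayed within counting error or within 1.5 times of a count and 54 did not. An alternative that left out TAL-like clusters with injury genes among their 10 leading genes removed no nuclei, so its values could not move. No fold called at 1.5-fold changed direction. For a median fold, counting error meant the median bounds of the single members' intervals, a wide limit for a median over members. Counts of members could only stay or move, so a change of direction could not be recorded for them. The turn of the TAL-like median at 28 d under TMM was not counted either, since that median was not called at 1.5-fold. For 39 single members, 705 of 795 values stayed and 89 moved, and 1 changed direction: Rpl27 at 96 h, with 8 UMIs in that sum, went from a log2 fold of 0.99 to -0.067 without cluster 12. With TMM scaling every log2 fold in PT-like nuclei shifted by a fixed amount (-0.22 at 64 h, -0.44 at 96 h, -0.13 at 28 d), giving member medians of 0.78 and 0.88 at 64 h and 96 h (0.77 and 1.05 over all nuclei) and -0.33 for the GFP-negative against the GFP-positive library over all nuclei, where the value with plain totals was 0.05. Under TMM, TAL-like members lower at 64 h numbered 3, and 5 were higher and 8 lower at 28 d. Without nuclear-retained RNA the summed folds were 1.93, 2.20 and 0.887 in PT-like nuclei and 1.89, 2.43 and 0.937 over all nuclei, and 2 TAL-like members were lower at 64 h. Thinned to 600 UMIs they were 2.1, 2.22 and 0.864 in PT-like and 2.02, 2.41 and 0.931 over all nuclei, with 1 PT-like member lower at 96 h, 11 TAL-like members higher and 3 lower at 64 h, and 4 and 3 at 28 d. Without cluster 12 the 96 h fold was 2.25. In cluster 15 alone the folds were 1.97 at 64 h and 0.942 at 28 d, and the mean over single nuclei gave 0.892 in PT-like nuclei at 28 d. The 96 h fold in PT-like nuclei was 2.18 at resolution 0.5, 2.49 at resolution 2.0 and 2.59 with injury-led clusters. At resolution 0.5, 1 PT-like member was lower at 96 h, 2 TAL-like members were lower at 64 h, and 18 were higher and 9 lower at 28 d. The stricter barcode filter gave 2.54 over all nuclei at 96 h and 10 TAL-like members lower at 28 d. A pseudocount of 10 CPM left 5 PT-like members higher at 28 d. At a fold of 2, 41 PT-like members were higher at 64 h, and 3 higher and 5 lower at 28 d, and 11 and 4 TAL-like members were higher at 64 h and 28 d. TAL-like counts depended on the count minimum: with at least 5 UMIs, 39 higher and 4 lower at 64 h and 26 and 16 at 28 d, and with 1 UMI, 44 and 4, and 28 and 21. With the Lcn2-led cluster 2 TAL-like members were lower at 64 h. When members were allowed among the variable genes none was chosen, yet 21 clusters were found in place of 24, and 615 of the 1095 PT-like nuclei of 96 h fell into unnamed clusters. The PT-like class then held 985 nuclei at 96 h, 480 of them shared, the cause was not tested, and every fold and count stayed within the limits above. At 96 h TAL-like nuclei gave no fold because 9 were found.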

Other observations

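The unnamed clusters led by injury genes differed in their share of ribosomal protein RNA, which was highest in cluster 23 at each time after injury. Cluster 23, with Fgg, C3 and Havcr1 among its leading genes, stood at 1.51% (1.45% to 1.59%) in 137 nuclei at 64 h, 1.45% (1.42% to 1.48%) in 1354 nuclei at 96 h and 0.659% (0.598% to 0.725%) in 90 nuclei at 28 d. Cluster 18, with Vcam1, Cd44 and Havcr1 among its leading genes, stood at 0.497% in 105 nuclei without injury, 1.13% in 212 at 64 h, 1.33% in 135 at 96 h and 0.459% in 316 at 28 d, so that its 28 d nuclei were near the reference (0.924-fold, 0.856 to 0.997) although the cluster as a whole was led by injury genes. Cluster 5, led by Lcn2 and Clu, stood at 0.595% in 307 nuclei at 64 h, 0.937% in 364 at 96 h and 0.488% in 159 at 28 d. Each share is the sum over 1 library's nuclei in that cluster. Many of these nuclei were shallow: at 96 h 319 PT-like nuclei had under 500 UMIs, and 1162 did with clusters 18 and 23 added. Those 319 PT-like nuclei stood at 1.44%. The part of depth in the shares of these clusters was not tested.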
